A study of Homo sapiens
Mus musculus with 8 samples.

Results

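The cells described here were 2039 human cells with the marks of TALL-104, a human leukaemia line of CD8 T cells with cytotoxic activity that grows in interleukin-2. They were chosen by rule in every library: a barcode had to carry at least 1000 unique molecular identifiers (UMIs), over 80% of them on human genes, with less than 10% of its human UMIs on mitochondrial genes, and NKG7, CST7 and CD8A together had to hold at least 3 UMIs and at least 0.1% of its human UMIs. These 3 genes (the naming genes) set the membership, so they are left out of every result, and other genes that go along with them in the same cells could differ through that choice. Of 10340 human cells that passed the same filter, 7257 held under 0.02% of naming UMIs and are called Jurkat-like, after the human CD4 T leukaemia line Jurkat, and 1044 fell between the limits and were used for neither line. In all, 32377 barcodes of both species had at least 1000 UMIs.

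The study mixed Jurkat and TALL-104 cells in equal parts with a pair of mouse lymphocyte lines, EL4 (T cells) and IVA12 (B cells), and ran the mixture on Chromium kits, some of which read the 3′ and others the 5′ ends of transcripts. The cells came from culture, TALL-104 with interleukin-2 and Jurkat without it, so that the line and its medium cannot be told apart. The 7 libraries were 1 of 3′ v2 (replicate 2), 2 of 5′ v1 and 4 of 3′ v3, with targets of 2000 to 6000 cells. The 2 libraries of 5′ v1 shared one cell mixture (B), 3′ v3 replicates 1 and 3 another (F) and 3′ v3 replicates 2 and 4 a further one (G), whereas 3′ v2 came from mixture A. Kit and mixture therefore cannot be told apart, each line is 1 established culture, and p-values measure the spread between libraries, some of which are technical repeats.

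Cytotoxic T cells kill by releasing granules: perforin, the product of PRF1, opens the membrane of the target, and granzymes enter and cleave proteins there. The same cells secrete chemokines such as CCL3, CCL4 and CCL5, and many carry receptors shared with natural killer (NK) cells. Interleukin-2 acts through its receptor chains, the kinases JAK1 and JAK3 and the factor STAT5, and keeps such cells alive and dividing. Jurkat cells, in contrast, derive from an immature, thymus-like T cell leukaemia.

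The label was examined with the 2 marker genes that had not chosen the cells. PRF1 was found in TALL-104-like cells of every library, with 11 UMIs for the 3′ v2 library, 18 and 10 for the pair of 5′ v1, and 251, 151, 550 and 250 for 3′ v3, in order of replicate. GZMB, the granzyme most often used as a marker, was scarce: the same libraries held 20, 7, 27, 5, 10, 10 and 33 UMIs. With cells thinned at random to 1000 human UMIs, a PRF1 UMI was seen in 2.5% to 26.3% of TALL-104-like cells per library and in 0.292% to 1.52% of Jurkat-like cells. A GZMB UMI was seen in 0.402% to 15% against 0% to 0.697%, and in 3′ v2 it was found in 6 of 40 cells. The 27 GZMB UMIs of 5′ v1 replicate 2 came from 2 of its 29 cells. Without thinning the shares were 17.2% to 53.9% for PRF1 and 0.997% to 25% for GZMB in TALL-104-like cells, and 2.09% to 7.29% and 0% to 0.697% in the deeper Jurkat-like cells. The granule content thus went with the label through PRF1 and, by the comparison that follows, GZMA, GZMK and GZMM, while GZMB was lowest in 3′ v3 replicates 1 and 3, with 5 UMIs from 463 cells and 10 from 1003. CD8A itself had 217 UMIs over all members, so the membership rested on NKG7 and CST7, with 10989 and 4260 UMIs. CD8B, the other chain of the CD8 receptor, went against the label, with 7 UMIs (1.60 CPM over all libraries, CPM being UMI counts-per-million) in TALL-104-like cells and 876 (6.84 CPM) in Jurkat-like cells. A CD8B UMI was seen in 0% to 0.353% of the former and 0.282% to 0.758% of the latter after thinning, and in 0% to 1.47% and 3.48% to 15.6% without it. Jurkat markers were lower in the members. CD1E was at 16.2 CPM over all libraries (71 UMIs) against 466.5 CPM (59774 UMIs) in Jurkat-like cells, and TAL1 at 5.26 (23 UMIs) against 52.1 CPM (6671 UMIs). LEF1 differed less, at 53.5 (234 UMIs) against 349 CPM (44770 UMIs). CD4 was near 0 in both lines, with 1 and 145 UMIs.

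At the edge of the rule, 261 members had exactly 3 naming UMIs and 163 had a naming share under 0.15%. Just outside it, 154 human cells had a sufficient share but fewer than 3 such UMIs, and 316 had a share of 0.05% to 0.10%. Markers of other cell types were low in sum, though not all absent. In the comparison that follows, taken without its filter on low counts, 3 of 8 B cell markers were higher in TALL-104-like cells and 1 lower. Of 4 erythroid markers, 2 were higher and none lower, and of 6 myeloid markers, none was higher and 1 lower. The 8 B cell markers summed to 24.8 to 76.3 CPM in TALL-104-like cells and 21.4 to 70.9 in Jurkat-like cells, with CD22, BLNK and PAX5 among those at 0 in the former. The 8 myeloid markers summed to 0 to 19.8 against 43.6 to 96.0 CPM, with LYZ, FCN1, MPO and ELANE at 0 in TALL-104-like cells. The 8 erythroid markers summed to 0 to 76.8 against 0 to 1.56 CPM, all from HBA1, HBA2 and 1 UMI of HBG2, globin genes with near-identical copies, while HBB, HBG1, AHSP and ALAS2 were among those at 0.

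TALL-104-like cells were poor in RNA. The median number of UMIs per cell was 2637 for 3′ v2, 2798.5 and 2485 for the pair of 5′ v1, and 2036, 2792, 2166 and 2593 for 3′ v3, in order of replicate, against 9834 to 18945 in Jurkat-like cells. No library overlapped between the lines, and only 71 of the 2039 members held over 5000 UMIs. Members per library numbered 40 in 3′ v2, 68 and 29 in 5′ v1, and 463, 152, 1003 and 284 in 3′ v3, and they made up 4.39% to 47.5% of the human cells that passed the filter. That share was highest in 3′ v3 replicates 2 and 4, where the mitochondrial limit had kept only 62.8% and 48.8% of otherwise eligible TALL-104-like cells and 45.4% and 40.2% of Jurkat-like cells. In 3′ v3 replicate 1 it kept 78.2% of them and at least 96.7% in the remaining 4 libraries. Mitochondrial genes took a median of 2.02% to 8.67% of human UMIs in TALL-104-like cells. Mouse UMIs, a measure of RNA from outside the cell, took a median of 0.920% to 15.2% in TALL-104-like cells and 0.313% to 3.66% in Jurkat-like cells, and were highest in 3′ v3 replicate 3 for both. Member barcodes shared between any 2 libraries numbered 1. No doublet caller was run: the 80% limit removes most doublets across species, whereas doublets of both human lines can remain.

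At an equal depth of 1000 human UMIs, TALL-104-like cells showed a median of 553 genes per cell in 3′ v2, 624 and 610 in 5′ v1, and 568, 652, 586.5 and 658 in 3′ v3. Jurkat-like cells of the same libraries showed 569, 657, 656, 646, 642, 659 and 639 genes. TALL-104-like cells were lower in 5 libraries and higher in 3′ v3 replicates 2 and 4. The mean difference was -30.9 ± 37.8 genes (SD, n = 7), with p = 0.0938 in an exact two-sided sign-flip permutation test, whose smallest possible p was 0.0156.

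**Figure D1:**
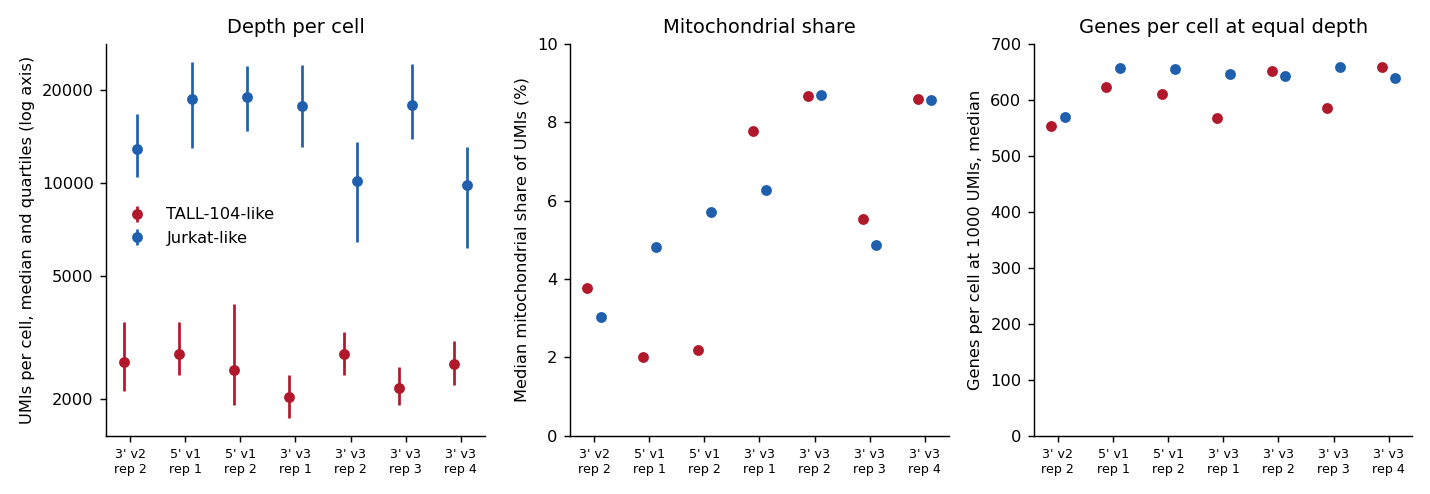
Left, UMIs per cell (log axis), as median and quartiles, in the 7 libraries. Middle, median mitochondrial share of human UMIs in percent. Right, median genes per cell after thinning to 1000 human UMIs. Red points are TALL-104-like and blue points Jurkat-like cells; the median depth of TALL-104-like cells lies between 2036 and 2798.5 UMIs, below 9834 in every Jurkat-like group, whereas genes per cell at equal depth lie close together.

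The main comparison asked which genes set TALL-104-like cells apart from Jurkat-like cells of the same library. UMIs were summed per library and line, giving 14 sums, and tested with the library as a block in edgeR. Values are given as normalised CPM, scaled by the trimmed mean of M-values (TMM). Of 9471 genes tested, 2639 (27.9%) were higher and 3337 (35.2%) lower in TALL-104-like cells at an adjusted p under 0.05, together 63.1%, and the median log2 fold over all genes tested was -0.12. In 1902 genes (20.1%) the 7 libraries of one line did not overlap with those of the other. The sums of the small members held 88306 to 1971085 UMIs and those of Jurkat-like cells 1256079 to 56283456, so a gene of low level was measured less well in TALL-104-like cells. Counts and medians of the gene lists cover only members that passed the filter on low counts, which a gene could pass through the line where it was high, and so describe those members and not the whole list. In such sums, fewer cells with a transcript and fewer transcripts per cell cannot be told apart.

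The chemokine CCL5 led the genes higher in TALL-104-like cells, among called genes with a mean of at least 100 CPM in the higher line and no overlap between the lines. CCL5, a chemokine that draws T cells and monocytes, ranged over 1583 to 7875 CPM (median 4535) in TALL-104-like cells and 0.0371 to 20.3 CPM (median 3.34) in Jurkat-like cells, a log2 fold of 9.89 ± 0.68 (SE, adjusted p = 1.67e-11). The calcium-binding protein S100A11 ranged over 691 to 1853 CPM against 0.111 to 6.24 CPM, a log2 fold of 9.69 ± 0.49, and S100A6 over 95.7 to 250 CPM against 0 to 2.1 CPM, a log2 fold of 9.39 ± 0.34. The other 9 of the 12 genes with the largest folds under this rule were CCL4, HOPX, PTGER2, MATK, FCER1G, XCL1, CXCR6, KLRB1 and CYTIP, with log2 folds from 8.93 to 9.38. PTGER2 encodes a receptor for prostaglandin E, MATK a kinase that restrains SRC kinases, and CYTIP a partner of the exchange factor cytohesin. Human RNA from outside the cell was estimated, from the mouse UMIs, at up to 2.62% of the human UMIs of Jurkat-like cells and 11% of those of TALL-104-like cells, both in 3′ v3 replicate 3. With that RNA subtracted, 5844 genes were called, 5805 of them among the 5976 and in the same direction. Where a gene had few UMIs in one line, its fold depends on the small prior count of the fit.

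By the same rule, the genes with the largest folds in the opposite direction were FXYD2, IGLL1, ARPP21, PMEPA1, DNTT, TSPAN7, SIX6, MYO7B, HES4, MYB, CD1E and YBX3, with log2 folds from -6.02 to -4.84. FXYD2, which encodes a regulator of the sodium pump, had 5 UMIs over all TALL-104-like cells and ranged over 44.9 to 280 CPM in Jurkat-like cells. MYB, a transcription factor of blood progenitors, ranged over 0 to 10.6 CPM (median 2.18) against 142 to 204 CPM (median 176), a log2 fold of -5.03 ± 0.29 (adjusted p = 8.64e-13). DNTT, the polymerase that adds bases to rearranging receptor genes in the thymus, ranged over 0 to 6.34 CPM against 58.8 to 160 CPM. The plot of leading genes by library shows the gap between the lines.

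**Figure D2:**
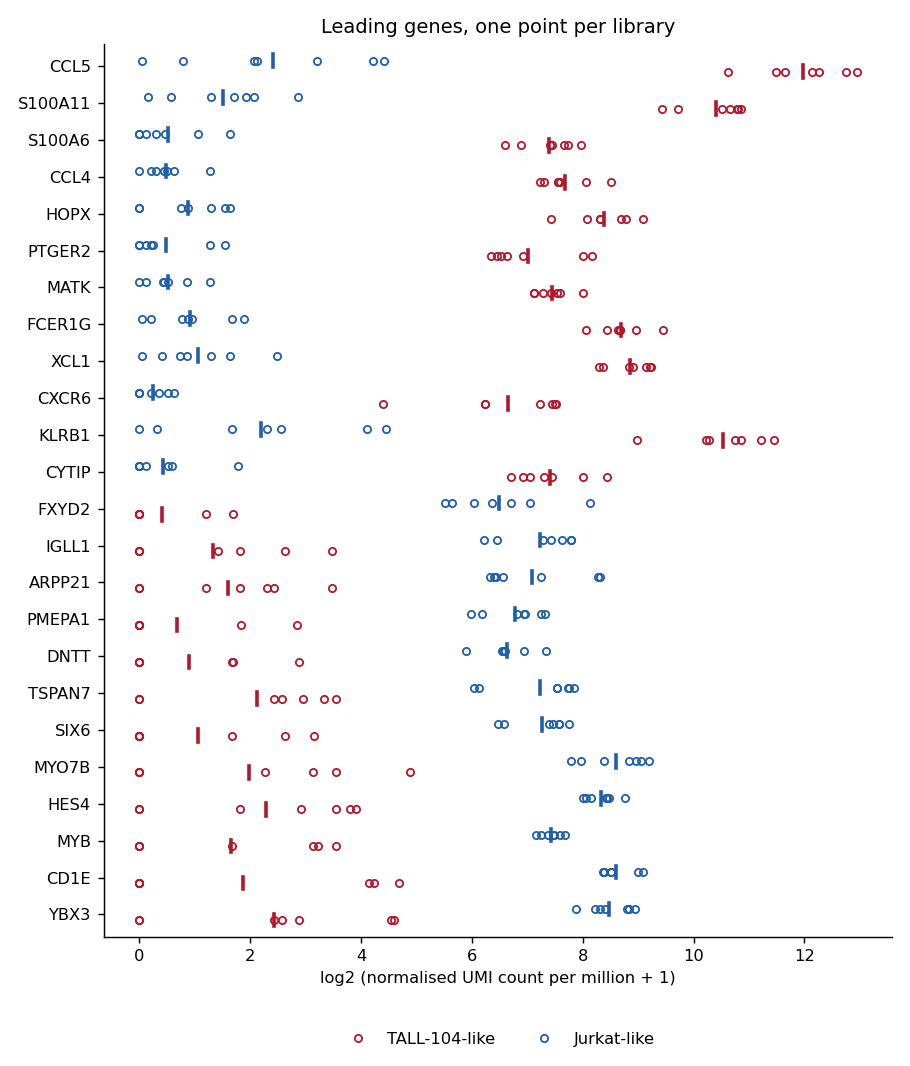
Levels of the 12 genes with the largest folds in each direction among called genes of at least 100 CPM without overlap, as log2 of CPM plus 1; each open circle is 1 library (7 per line) and each bar the mean of the log values. CCL5 lies at 1583 CPM or above in every TALL-104-like sum and at 20.3 CPM or below in every Jurkat-like sum, and MYB shows the opposite order.

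All 15 tested genes of the cytotoxic granule list (20 genes) were higher in TALL-104-like cells, with a median log2 fold of 3.77. GZMA, a granzyme of the tryptase type, was at 938 CPM in 3′ v2, 1082 and 808 in 5′ v1, and 2309, 1403, 2013 and 1280 in 3′ v3. In Jurkat-like cells of the same libraries it was at 15.4 to 58.7 CPM, so the lines did not overlap, and the log2 fold was 5.60 ± 0.16 (adjusted p = 2.80e-17). GZMK ranged over 20.2 to 420 CPM with a log2 fold of 7.40 ± 0.42, its lowest value in 3′ v2. GZMM ranged over 170 to 505 CPM, with a log2 fold of 5.55 ± 0.22. PRF1 ranged over 88.9 to 329 CPM against 1.43 to 7.71 CPM, a log2 fold of 5.96 ± 0.18 (adjusted p = 2.91e-17). Serglycin (SRGN), the proteoglycan core of the granule, had a log2 fold of 4.83 ± 0.23, and the lysosomal proteases CTSW, CTSC and CTSD had log2 folds of 3.77, 2.58 and 3.40. CTSC encodes the enzyme that activates granzymes. RAB27A and LAMP1, of granule docking and membrane, differed less, with log2 folds of 2.64 and 1.59. The death ligands FASLG and TNFSF10 ranged over 9.88 to 54.1 and 84 to 281 CPM in TALL-104-like cells, against at most 0.360 and 23.3 CPM. GZMB, GZMH, GNLY, STX11 and SERPINB9 did not pass the filter on low counts, without which 19 of all 20 genes of the list were higher and none lower. GNLY held 247 UMIs in TALL-104-like cells and 13 in Jurkat-like cells.

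Among NK cell receptors and adaptors (29 genes), 12 were tested, of which 10 were higher in TALL-104-like cells and none lower, with a median log2 fold of 7.87. Without the filter on low counts, 21 of 27 were higher and none lower, with a median of 6.21. KLRB1, which encodes the lectin receptor CD161, ranged over 504 to 2784 CPM (median 1723) against 0 to 20.9 CPM. NCAM1, which encodes CD56, ranged over 64.8 to 195 CPM against at most 1.40 CPM, a log2 fold of 8.32 ± 0.27 (adjusted p = 7.41e-17). The activating receptor NCR3 (NKp30) ranged over 53.2 to 222 CPM against 0.701 to 1.57 CPM, and SLAMF7 over 59.3 to 200.5 CPM against at most 1.63 CPM. The signalling adaptors FCER1G, TYROBP and HCST (DAP10) had log2 folds of 9.13, 8.77 and 3.85, and HCST was at 340 to 1290 CPM. In contrast, SH2D1A, the adaptor of SLAM receptors, was at 141 to 268 CPM in TALL-104-like cells and 184 to 260 CPM in Jurkat-like cells and did not pass the test (adjusted p = 0.405), nor did CD226 (adjusted p = 0.157). The killer lectin receptors KLRD1, KLRC1, KLRC2, KLRK1 and KLRF1 were among the 17 genes too low to be tested, with 27, 124, 9, 14 and 0 UMIs over all TALL-104-like cells.

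Of 23 cytokine and chemokine genes, 14 were tested, of which 13 were higher in TALL-104-like cells and 1 lower, with a median log2 fold of 6.16. Without the filter on low counts, 15 of 22 were higher, with a median of 4.03, and with a human share over 95%, 5 of 6, with a median of 2.86. IL32 had the highest mean level, although CCL5 was above it in both 5′ v1 libraries. It was at 6312 CPM in 3′ v2, 6210 and 5116 in 5′ v1, and 9520, 7471, 9082 and 6650 in 3′ v3, against 222 to 434 CPM in Jurkat-like cells, a log2 fold of 4.50 ± 0.18 (adjusted p = 9.34e-16). LTB, a membrane-bound relative of tumour necrosis factor, ranged over 1351 to 2278 CPM against 6.49 to 41.2 CPM, and TNF itself over 42.5 to 166 CPM against 0.360 to 1.40 CPM. The chemokines XCL1 and XCL2 ranged over 311 to 599 and 202 to 413 CPM, and CCL3 and CCL4 over 20.2 to 181 and 148 to 363 CPM. These chemokine pairs are close paralogs, so reads between the members of a pair are uncertain. MIF, a cytokine made by most cells, was the 1 gene lower in TALL-104-like cells, at 170 to 1351 CPM against 525 to 4441 CPM, a log2 fold of -1.55 ± 0.14. IFNG and CSF2 were not tested, with 11 and 17 UMIs in TALL-104-like cells.

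**Figure D3:**
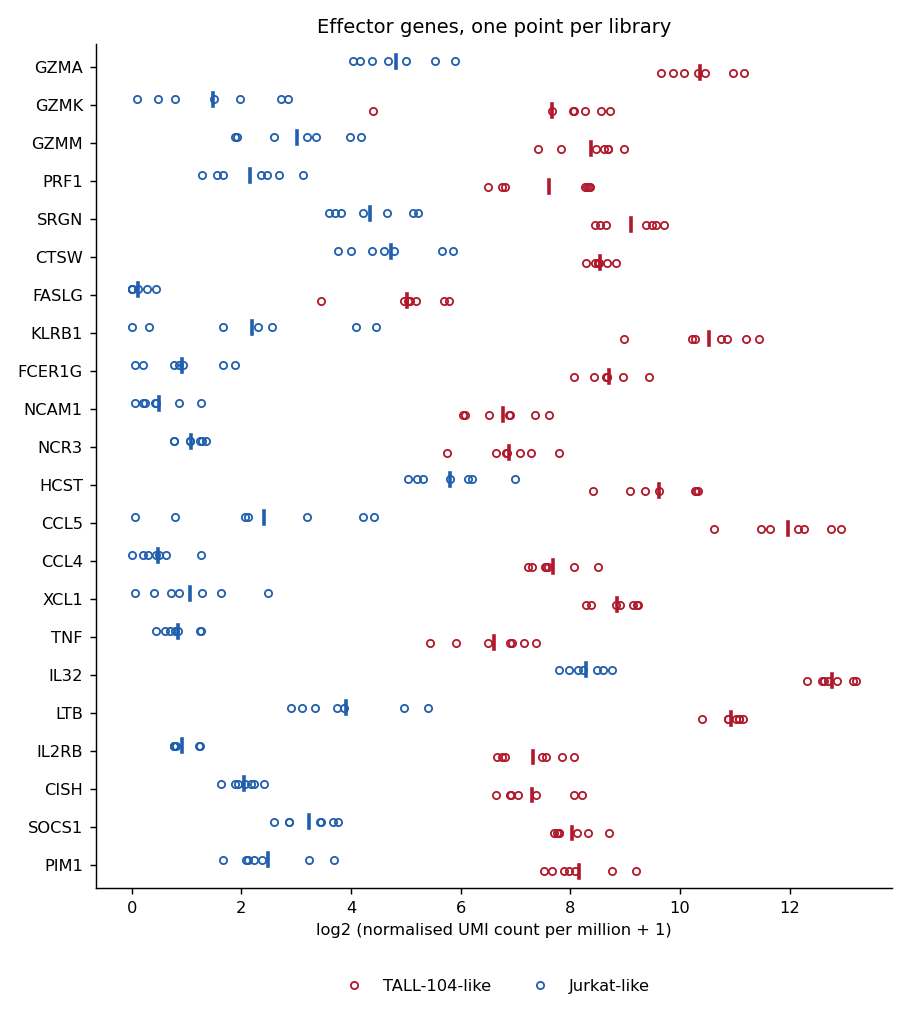
Levels of 22 genes of granules, NK receptors, cytokines and interleukin-2 signalling, as log2 of CPM plus 1; each open circle is 1 of 7 libraries per line and each bar the mean of the log values. In each of these genes the TALL-104-like libraries lie above all Jurkat-like libraries, as for IL2RB at 101 CPM or above against 1.36 CPM or below. The genes were picked from their lists, and members that were not called or were lower, such as SH2D1A, MIF and MYC, are not shown. Of all genes tested, 20.1% had no overlap between the lines, both directions together.

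Of 27 genes of the interleukin-2 receptor and of STAT5 targets, 22 were tested, with 16 higher and 3 lower in TALL-104-like cells and a median log2 fold of 2.66. With naming genes at 0.5% or more, 8 of 15 were higher, with a median of 0.99, and with a human share over 95%, 9 of 15, with a median of 1.32. IL2RB, the receptor chain shared with interleukin-15, ranged over 101 to 266 CPM against 0.699 to 1.36 CPM, a log2 fold of 7.31 ± 0.22 (adjusted p = 3.09e-17). The common chain IL2RG differed less, at 252 to 485 CPM against 118 to 212 CPM, a log2 fold of 1.25 ± 0.15. The kinases JAK1 and JAK3 had log2 folds of 3.12 ± 0.16 and 3.44 ± 0.17. The feedback inhibitors CISH and SOCS1 ranged over 99.5 to 296 and 207 to 415 CPM, against at most 4.33 and 12.6 CPM, with log2 folds of 5.63 ± 0.19 and 5.00 ± 0.17. The survival kinase PIM1 and the cyclin CCND2 had log2 folds of 5.95 and 5.86. MYC, PIM3 and STAT5B were lower, with log2 folds of -1.92 ± 0.18, -0.64 ± 0.17 and -0.63 ± 0.22, and PIM3 and STAT5B lost their calls under 3 and 9 of 22 alternatives.

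Of 9 tested genes of the CD3 chains and T cell coreceptors, 4 were higher, 2 lower and 3 not called, where 63.1% of all genes tested were called. Their median log2 fold of 0.13 had no stable sign. It was -0.18 with naming genes at 0.5% or more (3 higher and 2 lower), -0.29 with no filter on low counts (4 higher and 4 lower of 11), -0.04 with sums per cell mixture and -0.02 without mixture F. Constant genes of the receptor chains themselves (TRAC, TRBC1 and others) were not among the genes counted. CD3D was at 1714 CPM in 3′ v2, 914 and 999.9 in 5′ v1, and 1282, 713, 1287 and 643 in 3′ v3, against 726 to 2388 CPM in Jurkat-like cells, and was not called (adjusted p = 0.374). CD3G (adjusted p = 0.467) and CD5 (adjusted p = 0.226) were likewise not called. CD3E and CD247, which encodes the zeta chain, were higher by log2 folds of 0.80 ± 0.15 and 0.63 ± 0.14. CD7 and CD6, surface receptors of T cells, were higher by 2.58 ± 0.13 and 2.43 ± 0.17. The costimulatory receptor CD28 was lower, at 0 to 12.9 CPM against 45.8 to 87.0 CPM, as was CD2, with log2 folds of -3.22 ± 0.28 and -1.30 ± 0.16. Of 27 genes of proximal receptor signalling, 18 were higher and 2 lower, with a median log2 fold of 0.71. The kinases LCK and ZAP70 were not called, LCK at 353 to 534 CPM against 349 to 554 CPM and ZAP70 at 80.7 to 150 CPM against 113 to 190 CPM. The kinase TXK had the largest difference, at 70.8 to 117 CPM against 0.557 to 10.0 CPM, a log2 fold of 5.30 ± 0.34. The phosphatase PTPN22 and the adaptor LCP2 were higher by 2.40 ± 0.15 and 1.91 ± 0.17. SLA, an adaptor that lowers receptor signalling, and VAV1, an exchange factor, were lower by -0.99 ± 0.19 and -0.40 ± 0.16 on the log2 scale, and VAV1 lost its call under 15 of 22 alternatives.

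Transcription factors divided into those of effector cells and those of the thymus. Of 13 tested effector factors, 11 were higher in TALL-104-like cells and 1 lower, with a median log2 fold of 4.99. HOPX, a homeodomain protein without DNA binding, ranged over 171 to 542 CPM against 0 to 2.1 CPM, and ID2, an inhibitor of E proteins, over 79.0 to 676 CPM against 2.63 to 13.8 CPM. RUNX3, KLF6, BHLHE40 and ZNF683 (Hobit) had log2 folds of 4.08, 4.47, 6.47 and 7.25. KLF2, a factor of resting T cells, was lower with 30 UMIs in all and a log2 fold of -3.08 ± 0.28, and GATA3 was not called (adjusted p = 0.195). Of 24 tested thymocyte and T cell leukaemia genes, 21 were lower in TALL-104-like cells, with a median log2 fold of -3.67. SOX4 ranged over 10.6 to 171 CPM against 634 to 2551 CPM, a log2 fold of -4.09 ± 0.25, and LEF1 over 31.9 to 74.7 CPM against 254 to 495 CPM, a log2 fold of -2.81 ± 0.19. The antigen-presenting protein CD1E was at 0 in 4 of the 7 TALL-104-like sums and at 16.8, 24.6 and 17.7 CPM in 3′ v3 replicates 1, 3 and 4, against 328 to 546 CPM. TCF7 differed less, with a log2 fold of -1.10 ± 0.19. The 2 genes of this list that were higher were LMO2, at 10.1 to 95.9 CPM against at most 1.08 CPM, and TRIB2, with a log2 fold of 1.41 ± 0.18. LMO2 encodes a partner of TAL1, which was lower by a log2 fold of -3.56 ± 0.31.

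Genes of antigen presentation and interferon response were mostly higher. Of 20 tested genes of MHC class I and antigen processing, 14 were higher and 1 lower, with a median log2 fold of 0.99. B2M, the light chain of class I molecules, ranged over 7038 to 14834 CPM against 1095 to 1887 CPM, a log2 fold of 2.88 ± 0.15 (adjusted p = 1.64e-13). HLA-B had a log2 fold of 3.75 ± 0.21, although its reads may be split with those of its paralogs. CALR, a chaperone of the loading complex, was lower, with a log2 fold of -0.61 ± 0.19, but lost its call under 3 of 22 alternatives, 1 of them leaving out 3′ v3 replicate 3, and was higher by 0.33 on the log2 scale in mixture G. No gene of the class II list could be tested, with 34 UMIs over all TALL-104-like cells. Of 40 interferon-stimulated genes, 30 were tested and the others were too low. Of the 30, 22 were higher and 4 lower, with a median log2 fold of 1.32, which was 0.83 with naming genes at 0.5% or more. Without the filter on low counts, 25 of 40 were higher and 8 lower, with a median of 1.065. IFITM2 and IFITM1, which block virus entry, ranged over 556 to 1008 and 148 to 741 CPM, with log2 folds of 4.27 ± 0.16 and 4.62 ± 0.16. TRIM22 and GBP2 had log2 folds of 6.40 and 7.43. The 4 lower genes of the 30 tested were IFI6, XAF1, HERC5 and USP18, with log2 folds of -0.84, -0.52, -2.01 and -2.26. IFI6 and XAF1 lost their calls under 2 and 9 of 22 alternatives.

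All 19 tested homing receptors and integrins passed the test, 15 higher and 4 lower in TALL-104-like cells. Of all genes tested, 27.9% were higher and 35.2% lower. The median log2 fold of the 19 was 1.81, which was 0.63 with a human share over 95% and 0.71 with a mitochondrial limit of 5%. Without the filter on low counts, 20 of 29 were higher and 5 lower, with a median of 1.77. CXCR6, a chemokine receptor of tissue-resident T cells, was at 20.2 to 183 CPM against at most 0.542 CPM, and the hyaluronan receptor CD44 was at 262 to 415 CPM against at most 4.34 CPM, a log2 fold of 8.82 ± 0.43. CXCR3, ITGB7 and S1PR4 had log2 folds of 4.95, 5.96 and 7.07. The integrin chains ITGA4 and ITGAE and the adhesion molecule ICAM2 were among the lower genes, with log2 folds of -1.73, -0.82 and -1.56. Of 17 tested S100 proteins, galectins and annexins, 16 were higher, with a median log2 fold of 2.01. Without that filter, 18 of 21 were higher and 1 lower, with a median of 1.665. LGALS1, a secreted galectin, ranged over 915 to 4427 CPM against 6.53 to 23.3 CPM, and the filament protein vimentin (VIM) over 1850 to 3271 CPM against 439 to 1104 CPM. LGALS9 was the 1 lower gene, with a log2 fold of -2.94 ± 0.25. Of 11 tested costimulatory and checkpoint receptors, 10 were higher, with a median log2 fold of 2.84. Without the filter on low counts, 11 of 18 were higher and none lower, with a median of 2.44. CD96 was the most abundant of them, at 565 to 1438 CPM against 22.0 to 60.7 CPM, followed by CD48 at 277 to 630 CPM. PDCD1, CTLA4, LAG3 and TIGIT were not tested, with 1, 0, 11 and 2 UMIs over all TALL-104-like cells.

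All 35 tested genes of DNA replication and mitosis were lower in TALL-104-like cells, with a median log2 fold of -2.02. In the single 3′ v2 library, however, 14 of them were above the level in Jurkat-like cells, as for TK1, CCNE2 and MCM6 by 1.41, 1.36 and 0.79 on the log2 scale, whereas none was so in the mean of any other mixture. The median was -5.02 with naming genes at 0.5% or more and -1.35 with a human share over 95%. CCNB1, the cyclin of entry into mitosis, was at 4.94 to 39.9 CPM against 87.0 to 345 CPM, a log2 fold of -3.33 ± 0.20 (adjusted p = 1.23e-12), and TYMS, of thymidylate synthesis, at 76.0 to 232 CPM against 608 to 1069 CPM, a log2 fold of -2.71 ± 0.17. MKI67 overlapped between the lines. It was at 353 CPM in 3′ v2, 34.6 and 223 in 5′ v1, and 49.0, 78.5, 83.8 and 182 in 3′ v3, against 178 to 489 CPM, and 3′ v2 alone had more in TALL-104-like than in Jurkat-like cells. The level went with cell depth: over all libraries, the 71 members above 5000 UMIs had MKI67 at 569 CPM (here scaled to human UMIs without TMM), the 1968 smaller ones 44.2 and Jurkat-like cells 215. Within libraries, the larger members were above Jurkat-like cells in 6 of 7, the exception being 5′ v1 replicate 1 at 169 against 253 CPM. The larger members also had CD1E at 74.7 CPM, with 9.45 in the smaller ones and 467 in Jurkat-like cells. These CD1E counts came from 3′ v3 replicates 1, 3 and 4, at 20.0, 134 and 104 CPM, with 0 in the other 4 libraries. LEF1 and TAL1 were at 205 and 26.5 CPM in the larger members, 36.0 and 2.78 in the smaller ones and 350 and 52.1 in Jurkat-like cells. The 6 larger members of 3′ v3 replicate 1 went against the label, with LEF1 at 559 and TAL1 at 59.9 CPM and no UMI of PRF1 or GZMB, and the part of doublets in these values was not tested. Without members above 5000 UMIs, 34 of 34 tested genes of the list were lower, with a median log2 fold of -2.89.

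Of 20 tested genes of glycolysis and lactate transport, 13 were lower and 4 higher, with a median log2 fold of -0.68. With a human share over 95%, 8 of 18 were lower (median -0.36), without 3′ v3 replicate 3, 10 of 18 (median -0.41), and with equal totals by thinning, 10 of 16 (median -0.41). GAPDH ranged over 1085 to 3638 CPM against 2963 to 6865 CPM, a log2 fold of -0.95 ± 0.15, and LDHB over 242 to 594 CPM against 736 to 2232 CPM, a log2 fold of -1.60 ± 0.17. The higher genes were SLC2A3, a glucose transporter of high affinity, with a log2 fold of 4.45 ± 0.21, and SLC2A1, HK1 and SLC16A3, with log2 folds of 1.17, 1.08 and 2.17. These 4 genes did not pass the filter on low counts with a mitochondrial limit of 5%. Of 20 tested p53 targets and BCL2 family genes, 15 were higher and 2 lower, with a median log2 fold of 1.52, which was 0.55 with naming genes at 0.5% or more and 0.74 with a mitochondrial limit of 5%. BAX, which permeabilises mitochondria, ranged over 302 to 706 CPM against 68.7 to 136 CPM, and SESN1 over 40.3 to 142 CPM against 3.60 to 9.81 CPM. BID and PMAIP1 were lower, with log2 folds of -1.51 and -0.96. Of 82 tested cytosolic ribosomal protein genes, 40 were lower, 7 higher and 35 not called, where 63.1% of all genes tested were called (35.2% lower and 27.9% higher). The median log2 fold of the 82 was -0.34, against -0.12 over all genes. The summed level of the 82 ranged over 140551 to 374150 CPM in TALL-104-like cells, and the number lower depended on the fit. It was 7 with a mitochondrial limit of 5% (median log2 fold -0.23), 13 without the library block, 21 with sums per cell mixture, 23 with a human share over 95%, 24 with equal totals by thinning or without 3′ v3 replicate 2, and 26 without mixture G (median -0.19). It was 45 without mixture F, 50 with no filter on low counts and 51 with naming genes at 0.5% or more (median -0.77).

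**Figure D4:**
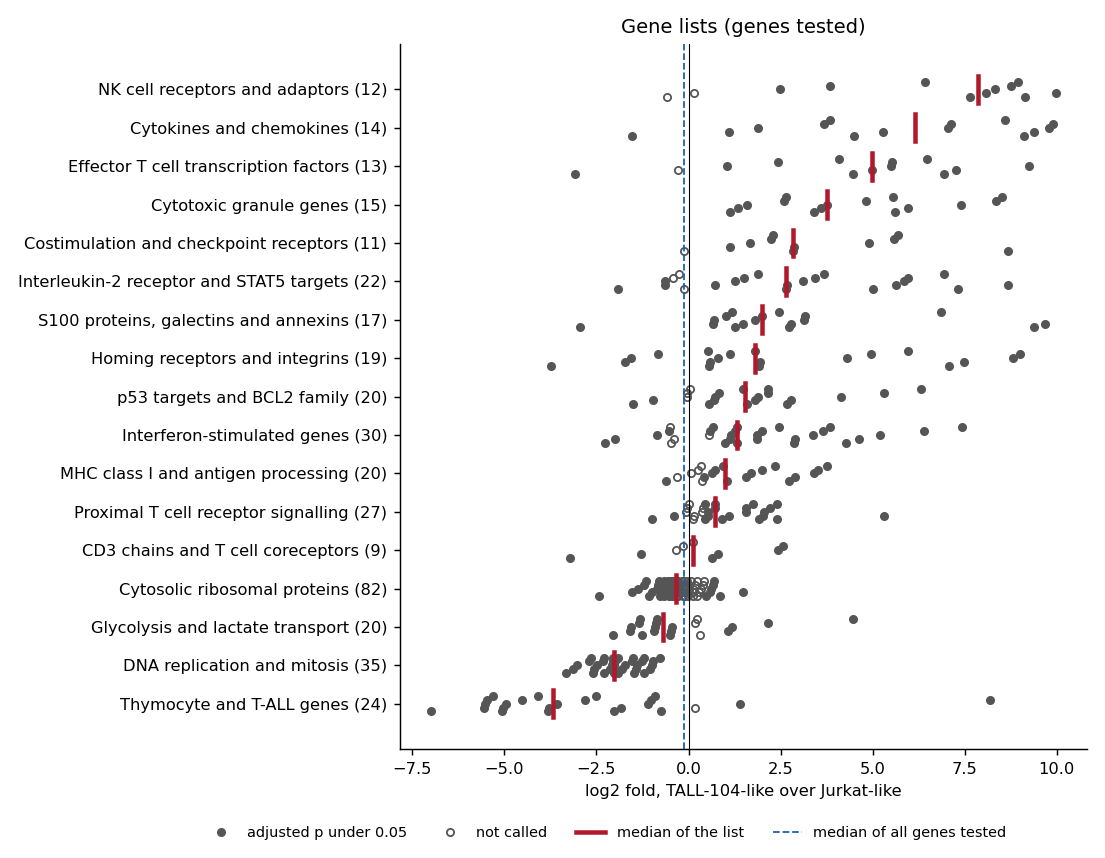
Log2 fold of TALL-104-like over Jurkat-like cells for every tested gene of 17 lists (number tested in brackets); filled points have an adjusted p under 0.05, open points do not, red bars are list medians and the dashed line is the median of all genes tested, -0.12. The NK receptor list lies furthest to the right, at a median of 7.87, and the thymocyte list furthest to the left, at -3.67.

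Variation among TALL-104-like cells was described in the 4 libraries with at least 100 members (3′ v3), after thinning to 1000 UMIs. Over 1491 genes with a mean of at least 0.1 UMI, the median ratio of variance to mean was 1.02, close to the 1 that counting alone gives. The nuclear RNA MALAT1 had the highest ratio, 5.05, with a mean of 46.0 UMIs per cell. It was followed by the histone HIST1H4C at 4.02, with a mean of only 0.235 UMIs, and the ferritin chain FTH1 at 3.32. CCL5 came next with a mean of 3.97 UMIs and a ratio of 2.88, between 2.37 and 3.47 in the single libraries. The others of the 10 genes with the highest ratios were FTL, STMN1, NEAT1, TUBA1B, LTB and TPT1, at 1.80 to 2.70. For a given relative spread the ratio rises with the mean, so this order is not one of relative variation. HIST1H4C, STMN1 and TUBA1B are genes that rise in dividing cells. Levels also differed between preparations: NEAT1 had a mean of 0.917 and 0.951 UMIs per cell in 3′ v3 replicates 1 and 3 and 3.09 and 3.76 in replicates 2 and 4, while FTH1 had 4.15 and 3.29 against 1.69 and 1.82.

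The libraries of 3′ v3 and 5′ v1 were compared within TALL-104-like cells. A difference found here may be shared by Jurkat-like cells, which took no part in this comparison. Of 7651 genes tested, 377 (4.93%) were called, 193 higher and 184 lower in 3′ v3. The 5′ v1 side rested on 97 cells in 2 libraries. Without either one, 1 library is left in that group and 3′ v3 alone gives the spread. Such a refit cannot show what each library contributes. JUND, a subunit of the AP-1 factor, was at 956, 535, 683 and 483 CPM in 3′ v3 replicates 1 to 4 and at 20.2 and 11.3 CPM in 5′ v1, a log2 fold of 5.26 ± 0.56 (adjusted p = 6.78e-05). The tetraspanin CD81 was at 366 to 646 CPM against 20.2 and 11.3 CPM, a log2 fold of 4.80 ± 0.54. UBE2M and the second of the 2 entries named NDUFB8 had means of 137 and 167.5 CPM in 3′ v3 and only 2 and 3 UMIs in 5′ v1. They lost their calls under 2 of 15 and 2 of 17 alternatives, and the first KIR3DL2 entry given below under 1 of 17. The other 7 of the 10 genes with the largest differences lost none. In the opposite direction, ATP6V0C, of the proton pump of lysosomes, was at 197 and 315 CPM in 5′ v1 and at 0 to 6.21 CPM in 3′ v3, and the autophagy gene GABARAP was at 385 and 383 CPM against 8.73 to 43.5 CPM. HIST3H2A and MTRNR2L12 had log2 folds of -4.97 ± 0.43 and -4.25 ± 0.31, and MTRNR2L12 is near-identical to part of a mitochondrial ribosomal RNA, so its level is uncertain. KIR3DL2, an inhibitory NK receptor, was split by kit over 2 entries of the gene list with the same name. The first was at 190 to 346 CPM in 3′ v3 and at 10.1 and 22.5 CPM in 5′ v1, whereas the second was at 334 and 439 CPM in 5′ v1 and at 0 to 1.26 CPM in 3′ v3. The entries are near-identical, so levels of either one are uncertain.

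**Figure D5:**
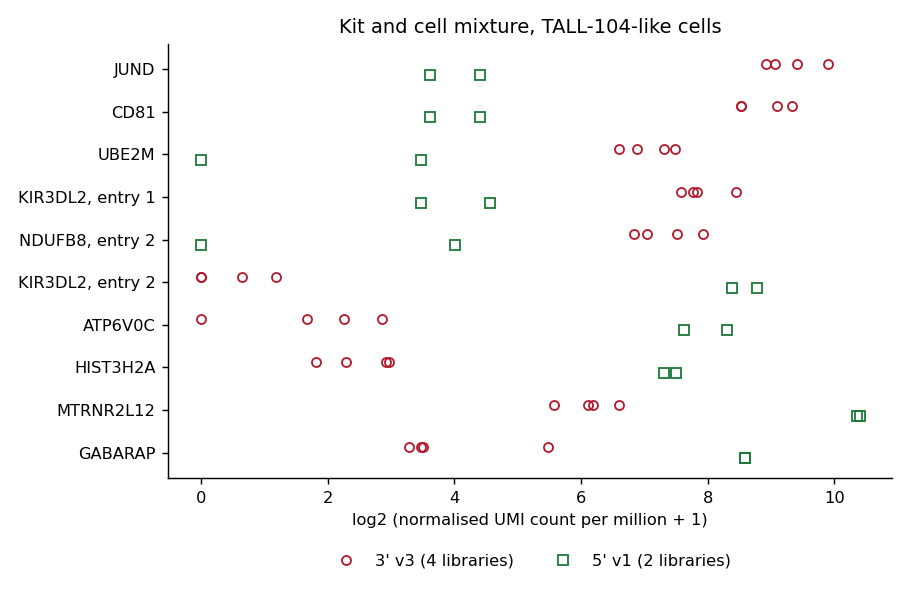
Levels in TALL-104-like cells of the 5 called genes with the largest difference in each direction between 3′ v3 (red circles, 4 libraries) and 5′ v1 (green squares, 2 libraries), as log2 of CPM plus 1. The 2 entries of KIR3DL2 lie in opposite orders. None of the genes overlaps between the kits, which is no further result because they were picked for their large difference.

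Of 363 tested genes of the lists above, 31 (8.54%) were called, 15 higher and 16 lower in 3′ v3. PRF1 was higher in 3′ v3, at 320 ± 8.53 CPM (SD, n = 4) against 102 ± 15.2 (n = 2), a log2 fold of 1.69 ± 0.35. Jurkat-like cells had the same order, at 3.97 to 8.76 CPM in 3′ v3 and 2.08 and 1.59 CPM in 5′ v1 (scaled without TMM). PRF1 was not called by the interaction test that follows. RUNX3 and ID2 were also higher in 3′ v3, with log2 folds of 1.53 ± 0.36 and 1.71 ± 0.44. GZMB was lower, at 6.46, 21.8, 5.65 and 41.7 CPM in 3′ v3 replicates 1 to 4 and 35.4 and 304 CPM in 5′ v1, a log2 fold of -3.05 ± 0.79 that rests on the few cells named above. CDKN1A, the p53 target that halts the cell cycle, was lower, at 17.5 to 25.2 CPM in 3′ v3 and 101 and 225 CPM in 5′ v1, a log2 fold of -2.86 ± 0.40. The STAT5 targets CISH, PIM1 and SOCS2 were lower, with log2 folds of -1.23, -1.23 and -1.71. None of the 29 tested genes of DNA replication and mitosis was called, against 4.93% of all genes.

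Whether the difference between the lines itself differed between 3′ v3 and 5′ v1 was tested by an interaction. Of 11295 genes, 116 (1.03%) were called, 47 with a larger log2 fold of TALL-104-like over Jurkat-like cells in 3′ v3 and 69 with a smaller one. PRKCA, a protein kinase C, was at 172 to 334.5 CPM in TALL-104-like cells of 3′ v3. In those of 5′ v1 it was at 20.5 and 10.5 CPM, from 5 UMIs in all. Jurkat-like cells had 85.2 to 147 CPM in 3′ v3 and 57.9 to 62.1 CPM in 5′ v1. The interaction on the log2 scale was 2.87 ± 0.47 (adjusted p = 0.00434). The 5′ v1 side of these calls rests on 2 libraries. Without either one, that kit holds 1 library and 3′ v3 alone gives the spread. Such a refit cannot show how far the calls depend on each.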

How the data were processed

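The authors ran the mixtures on Chromium kits, thinned the reads of every library by seqtk and processed them with Cell Ranger 3.0.2 on a combined human (hg19) and mouse (mm10) reference, the 1.2.0 release of 10x Genomics. The deposited matrices hold raw UMI counts for all barcodes, with 32738 human genes and 24790710 to 251164949 UMIs per library. The 3′ v2 library of replicate 1 was not analysed here.

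Cells were chosen by the limits given above, with the mitochondrial share taken over human UMIs. The members and gene lists were chosen with earlier results of these data known. No doublet caller was run. UMIs were summed per library and line and tested with edgeR 4.0.16 (R 4.3.3), by the quasi-likelihood test with TMM factors and Benjamini-Hochberg adjustment, after filterByExpr. Both lines came from the same libraries, so the library was a block in the comparison of lines. Replicate numbers follow accession order, so samples of different kits are not paired by them, and cell mixtures were taken from the study's sample table. Named genes were the 12 with the largest fold in each direction (at least 100 CPM in the higher line, no overlap) and list members called with at least 50 CPM or needed to define a list. Also named were the 5 largest in each direction for both kit comparisons, and the 10 with the highest ratio of variance to mean among cells. DESeq2 1.42.0 was an alternative. Cells were thinned in Python 3.11.15 (numpy 2.4.6), leaving out 13 TALL-104-like and 21 Jurkat-like cells under 1000 human UMIs, and permutation tests enumerated all sign flips (scipy 1.17.1). On simulated counts the fit recovered 77% of genes changed by 1 and 99% of genes changed by 2 on the log2 scale in the comparison of lines (9471 genes), 5% and 50% between kits (7651 genes), and 12% and 52% for the interaction (11295 genes). A few list members are not reported here by name.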

Additional observations from a re-analysis of the deposited data

Results flagged for a closer look

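Among 144 groups of 4 TALL-104-like sums of 3′ v3, 3 held a highest library far from the others, where chance alone flags about 1 in 20 groups. FCER1G was at 497.3 CPM in 3′ v3 replicate 1 and at 399 to 408 CPM in the others. SLA was at 81.11 CPM in replicate 4 and at 30.9 to 36.3 CPM in the others, and LGALS9 at 19.01 CPM in replicate 4 and at 7.73 to 8.94 CPM in the others.

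The interaction test (edgeR, adjusted p under 0.05) called 116 genes with a different line difference in 3′ v3 than in 5′ v1. The 10 given here had the largest differences, 5 in each direction, among those with a mean of at least 100 CPM in some group. The log2 fold of TALL-104-like over Jurkat-like cells was larger in 3′ v3 by 3.053 for SMARCA4, 2.873 for PRKCA, 2.814 for CDC27, 2.784 for ZNF652 and 2.517 for RPSAP58. The difference was -8.753 for the second entry of KIR3DL2, -6.65 for HOPX, -6.242 for KLRB1, -5.432 for ASB2 and -5.364 for MTRNR2L8. MTRNR2L8 was at 112 to 187 CPM in TALL-104-like cells of 3′ v3 and at 2645 and 2343 CPM in those of 5′ v1, and at most 46.8 CPM in Jurkat-like cells, and is near-identical to mitochondrial ribosomal RNA. HOPX and ASB2 had 0 UMIs in Jurkat-like cells of 5′ v1, so that their fitted differences depend on the prior count. KLRB1 had 3 UMIs in those cells, while its mean in TALL-104-like cells was 2029 CPM in 3′ v3 and 1814 CPM in 5′ v1. SMARCA4, PRKCA, CDC27, ZNF652 and RPSAP58 had only 3, 5, 3, 3 and 6 UMIs in TALL-104-like cells of 5′ v1. RPSAP58 had means of 38.0 and 143 CPM in Jurkat-like cells of 3′ v3 and 5′ v1, against 30.4 and 20.7 CPM in TALL-104-like cells. MTRNR2L8 kept its call under every alternative run, and the other 9 lost it at least once.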

How the results depend on the processing

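Of 133 named genes called between the lines, 120 kept their call and all 133 their direction under every alternative in which they were tested. CD247, SLC2A1, ITGAE, PMAIP1 and MKI67 lost theirs under 1 alternative each. Of 11 named genes not called, 7 had folds of both signs. Of the 5976 calls, none was called in the opposite direction, but 57 had an opposite fold without a call with naming genes at 0.5% or more, 16 with a mitochondrial limit of 5% and 4 with a human share over 95%. The 5976 genes called fell to 2555 with a mitochondrial limit of 5% (no TALL-104-like cell of 3′ v3 replicate 2 was left), 3544 with a human share over 95% (2 such cells left in 3′ v3 replicate 3), 3795 with naming genes at 0.5% or more (4 left in 3′ v2, 1165 higher and 2630 lower, median log2 fold -0.399) and 3573 with totals made equal by thinning, where fewer genes were tested. They ranged from 4746 to 6105 without 1 library, and with sums per cell mixture 5554 genes were called, 4840 of them among the 5976. Without the replicate block, 4624 genes were called between the lines and 5 rather than 116 in the interaction. No paired analysis was possible between kits because replicate numbers were given in accession order. The 377 genes called between kits became 605 with no filter on low counts (400 higher and 205 lower), 207 with a human share over 95%, 136 with naming genes at 0.5% or more and 250 with members of at most 5000 UMIs. They ranged from 12 (without 5′ v1 replicate 1) to 540 without 1 library, and were 41 without 5′ v1 replicate 2. The 116 interaction calls became 199 with no filter, 19 with the 5% limit, 48 with naming genes at 0.5% or more, 22 with free RNA subtracted and 24 with equal totals. They were 279, 159, 184 and 247 without 3′ v3 replicates 1 to 4. Without either 5′ v1 library far fewer were called, but 1 library is then left in that kit, so this cannot show what each contributes. With RLE factors, 27 were larger and 111 smaller in 3′ v3, and with total counts 23 and 108, against 47 and 69. In alternatives chosen after seeing the data, leaving out both libraries of mixture F or of mixture G gave 1020 and 591 interaction calls. The difference in genes per cell passed 0.05 with the 5% limit (-45.25 genes over 6 libraries, exact permutation p = 0.0313, with 2 TALL-104-like cells left in 3′ v3 replicate 4) and at 500 UMIs (-18.43 genes, exact permutation p = 0.0313), and ranged from -39.25 to -23.08 without 1 library. With a human share over 95% it was -17.93 genes, lower in 4 of 7 libraries (exact permutation p = 0.328). With means per cell mixture it was -29.06 genes, lower in 3 of 4 mixtures (exact permutation p = 0.25, smallest possible 0.125). The cause of these changes was not tested, and the small 5′ v1 sums limit both kit comparisons.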
